A study of Mus musculus with 407 samples.

Results

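The genes described here are the 9 genes of sarcoplasmic reticulum calcium handling named Atp2a1, Atp2a2, Sln, Pln, Ryr1, Ryr3, Casq1, Casq2 and Pvalb. They were chosen by name, with earlier results of these data known, and they are 9 of the 24458 gene symbols counted in every library. All 9 passed the filter on low counts in every comparison below.

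In a skeletal muscle fiber, an action potential opens the ryanodine receptors of the sarcoplasmic reticulum, and the released calcium switches on contraction. The SERCA pumps then return calcium to the reticulum, where calsequestrin holds it, and soluble parvalbumin buffers it in the cytosol of fast fibers. Fast and slow fibers use different versions of these proteins. Sarcolipin and phospholamban are small membrane peptides that inhibit the pumps, and sarcolipin can also make pump cycling release heat instead of moving calcium.

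RNA-seq was performed on 407 libraries from the gastrocnemius, tibialis anterior, soleus and diaphragm of female and male C57BL/6J mice at 6 ages, namely 27, 24, 21, 18, 12 and 6 months. The mice carried no transgene and received no treatment, and the 48 groups of muscle, sex and age held 6 to 10 libraries each. The mice were bought at different ages, and tissues of an age were collected on the same day, so age and collection day cannot be told apart. Which libraries of different muscles share a mouse is not given, and the tests below treat each library as 1 sample.

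The libraries held 38583802 to 300089909 counts, with a median of 72766895, and no 2 libraries were identical. In 3 libraries the summed level of the liver list, which includes Alb and Apoa1, was above 1000 CPM (counts scaled to a library total of 1000000): female soleus 18 months replicate 6, male diaphragm 21 months replicate 3 and male diaphragm 27 months replicate 6. In 7 libraries at least 2 of the 9 genes stood apart from the rest of the group: female diaphragm 24 months replicate 1, female diaphragm 27 months replicate 0, male diaphragm 6 months replicate 2, male diaphragm 12 months replicate 2, male diaphragm 27 months replicate 8, male gastrocnemius 12 months replicate 7 and male soleus 24 months replicate 8. Calls of age, of sex and of differences in change that were gained or lost without these libraries are given beside the results. The 7 libraries were chosen on the values of the same genes that are tested. Calls gained or lost without them therefore follow in part from that choice. The fiber markers matched the tissue labels: over all ages, Myh7, the slow myosin heavy chain, had a median of 7477 CPM in the female soleus and 11.4 CPM in the female tibialis anterior, and Myh4, the fastest one, had 64.8 and 30486 CPM. The summed heart list, with 8 of 8 genes found, had group medians of 2.18 to 15.9 CPM at 6 and 27 months. Of its defining markers, Nppa had a median of 0 in every muscle and sex. Myl7 had medians of 0.173 and 0.219 CPM in the female and male diaphragm and 0 in the limb muscles. Tnni3 had medians of 0.0432 CPM in the male tibialis anterior to 0.122 CPM in the female diaphragm. The summed smooth muscle list had medians of 72.4 to 157 CPM at these ages, and in the tibialis anterior it was above the slow-fiber list, with 157 against 88.7 CPM in females and 136 against 52.6 CPM in males at 6 months.

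The genes lie at these positions in the mouse genome build GRCm38.p6. The pump gene Atp2a1 (SERCA1, fast fibers) is at chr7:126445858-126463103 on the minus strand, and Atp2a2 (SERCA2, slow fibers and heart) is at chr5:122453513-122502225 on the minus strand. Sln (sarcolipin) is at chr9:53850251-53853849 on the plus strand and Pln (phospholamban) is at chr10:53337686-53345999 on the plus strand. Ryr1, the main release channel of skeletal muscle, is at chr7:29003340-29125179, and Ryr3, a second isoform, is at chr2:112631354-113217405, both on the minus strand. Casq1, the fast-fiber calsequestrin, is at chr1:172209894-172219895 on the minus strand and Casq2, the slow-fiber and cardiac form, is at chr3:102086415-102146514 on the plus strand. Pvalb (parvalbumin) is at chr15:78191112-78206400 on the minus strand. The counts are sums over a whole gene, so exons, introns and isoforms are not separated.

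Promoter sequences are shown for the members that moved together in the gastrocnemius, namely Casq1, Atp2a1 and Pvalb, which fell, and Casq2, which rose. Each is the RefSeq sequence of GRCm38.p6 from 250 bases before to 50 bases after a transcription start, written 5′ to 3′ on the gene's strand, and capitals mark the E-box letters CANNTG, which read the same on both strands and which myogenic factors can bind. The windows are chr1:172219846-172220145 for Casq1, chr7:126463024-126463323 for Atp2a1, chr15:78206351-78206650 and chr15:78204188-78204487 for the 2 starts of Pvalb, all on the minus strand, and chr3:102086165-102086464 on the plus strand for Casq2.
Casq1: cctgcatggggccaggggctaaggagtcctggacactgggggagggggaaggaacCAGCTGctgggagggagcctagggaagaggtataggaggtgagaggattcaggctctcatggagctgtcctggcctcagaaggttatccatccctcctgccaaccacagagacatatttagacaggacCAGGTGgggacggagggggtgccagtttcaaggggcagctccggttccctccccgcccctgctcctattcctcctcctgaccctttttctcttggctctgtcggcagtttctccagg
Atp2a1: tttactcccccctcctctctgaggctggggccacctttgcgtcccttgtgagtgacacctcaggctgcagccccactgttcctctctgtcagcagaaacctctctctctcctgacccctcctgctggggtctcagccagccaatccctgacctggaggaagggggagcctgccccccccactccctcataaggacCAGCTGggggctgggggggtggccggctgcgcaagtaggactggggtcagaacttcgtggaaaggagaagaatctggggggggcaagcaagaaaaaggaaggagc
Pvalb, first start: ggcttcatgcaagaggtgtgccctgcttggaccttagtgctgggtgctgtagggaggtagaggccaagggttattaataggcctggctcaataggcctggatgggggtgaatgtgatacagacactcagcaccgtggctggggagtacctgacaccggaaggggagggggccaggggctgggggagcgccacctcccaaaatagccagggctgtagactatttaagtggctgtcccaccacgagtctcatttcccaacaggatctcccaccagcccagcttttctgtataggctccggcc
Pvalb, second start: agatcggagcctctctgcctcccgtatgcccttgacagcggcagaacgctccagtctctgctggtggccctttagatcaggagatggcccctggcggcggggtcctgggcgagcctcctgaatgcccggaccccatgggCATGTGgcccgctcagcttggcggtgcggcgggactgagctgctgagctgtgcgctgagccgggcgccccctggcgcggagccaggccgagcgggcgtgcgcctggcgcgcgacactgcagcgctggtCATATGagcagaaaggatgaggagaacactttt
Casq2: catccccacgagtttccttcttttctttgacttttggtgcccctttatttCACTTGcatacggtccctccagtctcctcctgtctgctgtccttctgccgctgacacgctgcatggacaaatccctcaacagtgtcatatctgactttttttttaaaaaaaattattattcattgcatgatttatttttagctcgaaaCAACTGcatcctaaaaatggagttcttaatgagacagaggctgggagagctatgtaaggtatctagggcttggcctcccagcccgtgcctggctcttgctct
The letters occurred 2 times in the Casq1 window, 1 time in the Atp2a1 window, 0 times and 2 times in the Pvalb windows and 2 times in the Casq2 window, and 72.3% of 32851 promoter windows of this length held them at least once. The letters TATAAA, searched on both strands and held by 13.6% of the windows, were in none of these 5. In all, 6 of the 9 genes had a promoter entry; Sln, Atp2a2 and Ryr3 had none.

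At 6 months Atp2a1, Ryr1, Casq1 and Pvalb were higher in the gastrocnemius and tibialis anterior than in the soleus and diaphragm. These fast muscles still differed from each other. Atp2a2 was higher in the gastrocnemius than in the tibialis anterior by 3.24 ± 0.18 (SE, log2 scale) in females and 2.54 ± 0.11 in males. For Ryr3 the same difference was 0.96 ± 0.18 in females and 2.20 ± 0.29 in males. Per kilobase of transcript, Atp2a1 was the most abundant of the 9 genes in the female gastrocnemius, with a median of 9070 CPM per kilobase, followed by Pvalb at 2923, Casq1 at 839.9, Ryr1 at 500.1 and Atp2a2 at 109. In the female soleus Atp2a1 at 1534 and Atp2a2 at 1436 CPM per kilobase were nearly level, while in the female diaphragm Atp2a1 stood at 1133, Atp2a2 at 206 and Sln at 123. Ryr3 was the least abundant, from a median of 0.0563 CPM per kilobase in the female tibialis anterior to 0.600 in the female diaphragm.

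**Figure D1:**
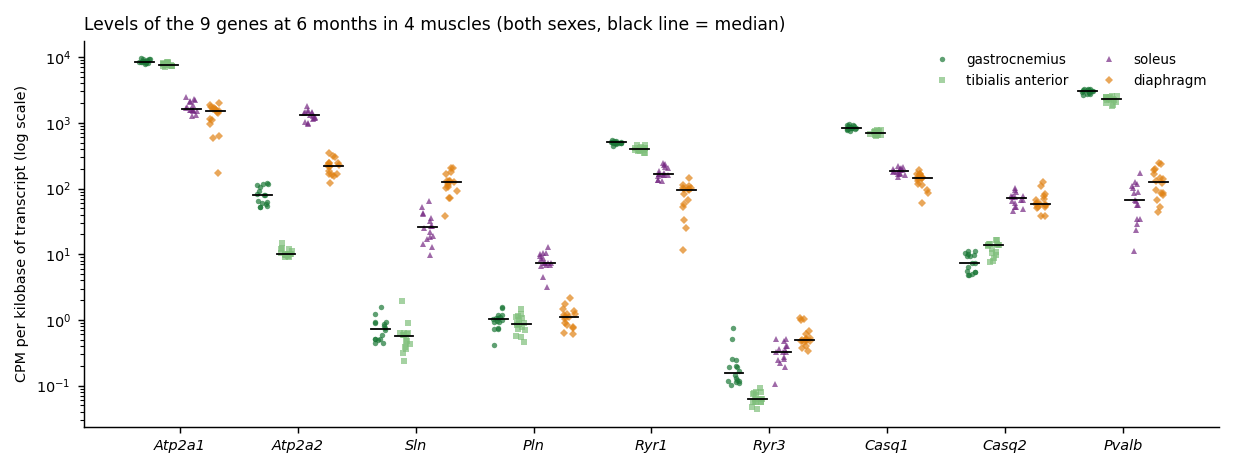
Levels of the 9 genes in every 6-month library of the 4 muscles, both sexes together, in CPM per kilobase of transcript on a log axis, with black lines at the medians. Atp2a1, Ryr1, Casq1 and Pvalb were highest in the gastrocnemius and tibialis anterior, Atp2a2 and Pln in the soleus, and Sln in the diaphragm.

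Between muscles, a gene is called where its adjusted p is below 0.05 (quasi-likelihood test of edgeR, p adjusted by Benjamini and Hochberg's method over all genes tested), and so in all comparisons below. At 6 months in females, 8 of 9 genes differed between diaphragm and gastrocnemius (72.5% of all genes did), 6 between diaphragm and soleus (57.3%), 8 between diaphragm and tibialis anterior (74.7%), 9 between gastrocnemius and soleus (51.0%), 3 between gastrocnemius and tibialis anterior (16.2%) and 9 between soleus and tibialis anterior (57.1%). In males the counts in the same order were 9 (66.7% of all genes), 7 (50.1%), 9 (66.9%), 8 (46.4%), 4 (12.6%) and 9 (46.2%). A large share of the genes tested differed between most pairs, so the sizes matter more than the counts.

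For the pump inhibitor Sln the order was diaphragm, soleus, then gastrocnemius and tibialis anterior. The 6-month medians in females were 163 CPM in the diaphragm, 44.4 in the soleus, 1.21 in the gastrocnemius and 0.799 in the tibialis anterior. The diaphragm exceeded the soleus by 1.89 ± 0.21 (SE) on the log2 scale in females and by 2.53 ± 0.31 in males, and it exceeded the gastrocnemius by 7.21 ± 0.28 and 7.66 ± 0.41. The gastrocnemius and tibialis anterior did not pass the test, with differences of 0.66 ± 0.25 (adjusted p = 0.076) in females and -0.10 ± 0.36 (adjusted p = 0.91) in males. Pln ranked differently: the soleus, at a median of 18.6 CPM in females and 17.2 CPM in males, was above the other 3 muscles, which lay between 1.65 and 2.80 CPM. Phospholamban, the inhibitor best known from heart and slow muscle, was thus scarce in the diaphragm, where sarcolipin was most abundant.

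Atp2a2 had the widest range across muscles after Sln. The soleus exceeded the tibialis anterior by 7.01 ± 0.21 on the log2 scale in females and by 6.90 ± 0.14 in males, and the order soleus, diaphragm, gastrocnemius, tibialis anterior held in both sexes, with every neighboring pair past the test. As a share of the 2 pump transcripts per kilobase, Atp2a2 had a median of 48.2% in the female soleus, 14.5% in the female diaphragm, 1.15% in the female gastrocnemius and 0.131% in the female tibialis anterior at 6 months. Atp2a1 was 2.90 ± 0.17 higher on the log2 scale in the female gastrocnemius than in the diaphragm, and it did not pass the test between diaphragm and soleus (adjusted p = 0.061 in females and 0.086 in males).

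Of the release channels, Ryr1 was higher in the gastrocnemius than in the diaphragm by 2.75 ± 0.22 on the log2 scale in females and by 2.47 ± 0.23 in males. Ryr3 went the other way in females, where the diaphragm exceeded the gastrocnemius by 2.62 ± 0.17, and this gap was 0.61 ± 0.27 (adjusted p = 0.047) in males. Casq1 was lower in the diaphragm than in the gastrocnemius by 2.77 ± 0.14 in females, and Casq2 was higher there by 2.82 ± 0.16. Pvalb, the fast-fiber buffer, spanned the gap between gastrocnemius and soleus with 5.42 ± 0.27 in females and 5.27 ± 0.38 in males.

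Differences between the sexes at 6 months were called in 8 of 36 tests. Casq2 was higher in females in the 3 limb muscles, with log2 differences of 0.83 ± 0.13 (adjusted p = 2.2e-07) in the gastrocnemius, 0.56 ± 0.11 (adjusted p = 0.0002) in the soleus and 0.54 ± 0.12 (adjusted p = 0.00036) in the tibialis anterior. In the gastrocnemius 3 of 9 genes were called, against 19.8% of all genes: Casq2, Atp2a2 (higher in females by 0.80 ± 0.13, adjusted p = 1.4e-06) and Ryr3 (lower in females by 1.38 ± 0.20 on the log2 scale, adjusted p = 4.2e-08). The gastrocnemius values for Ryr3 ran from 1.59 through a median of 1.83 to 2.22 CPM in females and from 2.57 through 3.41 to 11.5 CPM in males, with no overlap. In the soleus 3 of 9 were called, against 8.41% of all genes: Casq2, Sln (higher in females by 0.99 ± 0.30, adjusted p = 0.024) and Atp2a1 (lower in females, -0.39 ± 0.11, adjusted p = 0.017). In the tibialis anterior 2 of 9 were called, against 13.6%: Casq2 and Pln (0.60 ± 0.17, adjusted p = 0.0094). In the diaphragm 0 of 9 were called by edgeR and by limma-voom, against 0.512% of all genes by edgeR, and 2 of 9 had an unadjusted p below 0.05. Without the libraries that stand apart, Pvalb was called in the diaphragm as lower in females by 1.02 on the log2 scale (adjusted p = 0.024) and Ryr3 as higher by 0.66 (adjusted p = 0.033), and Atp2a1 was called as higher in the female gastrocnemius by 0.12 (adjusted p = 0.034). Those libraries were chosen on the values of these genes, so these calls are not independent of the choice. With the run of sample numbers (the labels' numbers fall into separate runs) as a term, Ryr1 was called as lower in the female soleus (-0.31, adjusted p = 0.034). In the gastrocnemius the slow-fiber list also differed between the sexes, with a median summed level of 929 CPM in females and 423 CPM in males at 6 months, and its part in the sex difference of Atp2a2 and Casq2 was not tested.

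The comparison of old with young asks which of these genes change over adult life in each muscle. The largest change was in Sln, which rose in the gastrocnemius and tibialis anterior of both sexes. In the gastrocnemius Atp2a2 and Casq2 rose and Atp2a1, Casq1 and Pvalb fell in both sexes, each by less than 1.5-fold. The soleus and diaphragm showed few calls, namely Ryr1 up in the female soleus and Pvalb down in the male diaphragm. Of the 72 tests of 9 genes in 8 muscle and sex combinations, 18 were called at 27 against 6 months, of which 6 were larger than 1.5-fold. Over the same combinations, 8.01% of the tests of all genes were called higher and 7.32% lower. The share of all genes past the 1.5-fold limit is not given here.

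**Figure D2:**
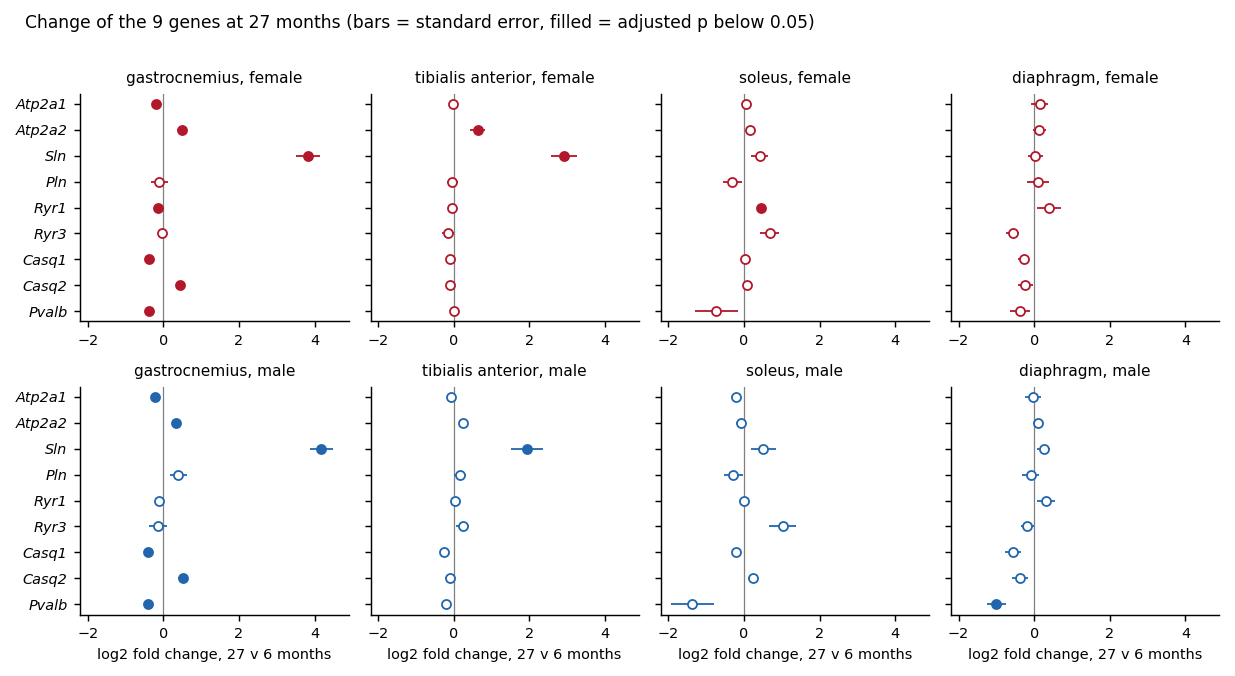
Log2 fold change at 27 against 6 months of the 9 genes in each muscle and sex, with bars of 1 standard error and filled points for adjusted p below 0.05 (edgeR). Sln in the gastrocnemius (3.84 and 4.18) and tibialis anterior (2.92 and 1.94) lies far to the right of all other points, and all but 2 points of the soleus and diaphragm are open.

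By muscle, 7 of 9 genes were called at 27 months in the female gastrocnemius, against 29.3% of all genes tested, and 6 of 9 in the male gastrocnemius, against 23.3%. In the tibialis anterior 2 of 9 were called in females, against 21.9%, and 1 of 9 in males, against 17.8%. In the soleus 1 of 9 was called in females, against 18.8%, and 0 of 9 in males, against 2.85%, where limma-voom and DESeq2 also called 0 and 3 had an unadjusted p below 0.05. In the diaphragm 0 of 9 were called in females, against 1.61%, where limma-voom called 0, DESeq2 called 1 (Ryr3) and 1 had an unadjusted p below 0.05, and 1 of 9 was called in males, against 8.65%. The median log2 fold change of all genes lay between -0.03 and 0.03 in these 8 fits.

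A test of any difference among the ages gave 7 of 9 in the female gastrocnemius (35.5% of all genes), 8 of 9 in the male gastrocnemius (28.6%), 2 of 9 in the female tibialis anterior (25.1%), 3 of 9 in the male tibialis anterior (25.4%), 1 of 9 in the female soleus (23.0%), 0 of 9 in the male soleus (4.42%), 0 of 9 in the female diaphragm (3.93%) and 1 of 9 in the male diaphragm (7.79%). The 0 in the male soleus and female diaphragm also came from limma-voom and DESeq2, and at an unadjusted p below 0.05 there were 0 and 1 genes. In the female tibialis anterior the call of Atp2a2 (adjusted p = 0.0498) was lost with limma-voom (0.17), RLE size factors (0.051), DESeq2 (0.051) and no low-count filter (0.057). In the male tibialis anterior that of Ryr1 (0.032) was lost with the run of sample numbers as a term (0.067), and Atp2a1 (0.055) was called with DESeq2 (0.023). In the male gastrocnemius that of Ryr1 (0.026) was lost without the filter (0.076). In the male diaphragm that of Pvalb (0.048) was lost with limma-voom (0.10), with the run term (0.21) and without the libraries with liver transcripts (0.088), and Casq1 (0.46) was called without the libraries that stand apart (0.031). These tissues are bulk samples, so fewer cells of a type and less RNA per cell cannot be told apart.

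Sln in the gastrocnemius went from a lowest value of 0.669, a median of 1.21 and a highest value of 2.04 CPM in 8 female libraries at 6 months to 7.82, 16.9 and 29.1 CPM in 10 at 27 months. In males it went from 0.583, 0.669 and 1.08 CPM to 7.71, 12.9 and 17.8 CPM. In both sexes all 10 old libraries lay above all 8 young ones, with no overlap. The log2 fold change was 3.84 ± 0.32 in females (adjusted p = 3.1e-13) and 4.18 ± 0.31 in males (adjusted p = 3.1e-14), which is 14.3-fold and 18.1-fold. Sln counts in the gastrocnemius ran from 39 to 2299 reads per library, so no library was at 0.

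The medians rose with each age in the gastrocnemius. In the female gastrocnemius the medians were 1.57 CPM at 12 months, 3.03 at 18, 5.70 at 21 and 8.14 at 24 months, and in the male gastrocnemius they were 1.25, 2.13, 3.37 and 5.80 CPM. From 21 months on, all female libraries were above all 6-month ones, and in males this held from 18 months. The change was called from 18 months in both sexes, by 1.37 ± 0.31 in females and 1.77 ± 0.30 in males on the log2 scale. The shares of all genes called in the female gastrocnemius were 0.579% at 12, 9.60% at 18, 15.8% at 21 and 19.2% at 24 months, and in the male gastrocnemius 1.08%, 2.99%, 10.2% and 14.6%. None of the 9 genes was called at 12 months in either sex.

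**Figure D3:**
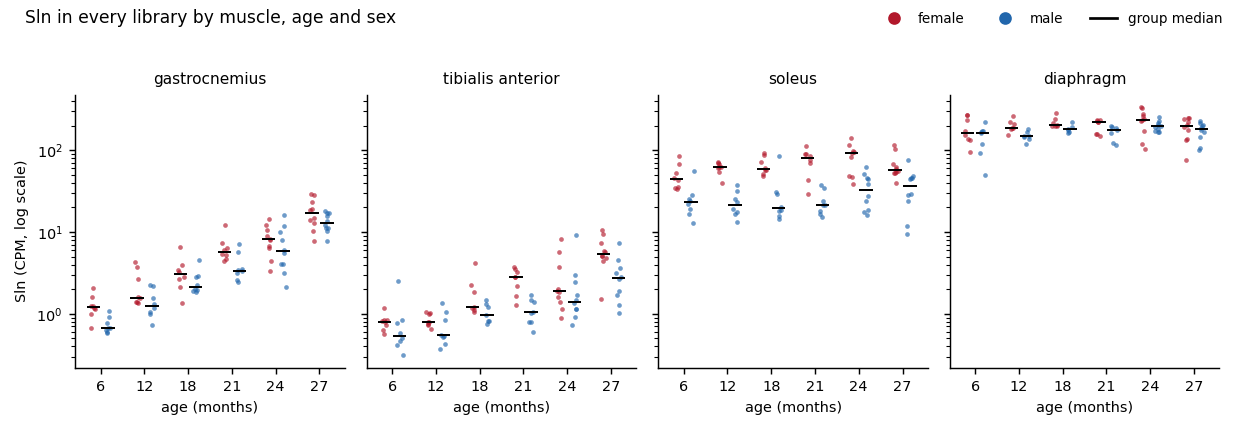
Sln in every library in CPM on a log axis, by muscle, age in months and sex, with black lines at the group medians. In the gastrocnemius and tibialis anterior the 27-month median is the highest of the 6 ages, at 16.9 CPM against 1.21 CPM at 6 months in the female gastrocnemius, while no diaphragm library of any age is below 49.7 CPM.

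In the tibialis anterior Sln ran from 0.569 through a median of 0.799 to 1.17 CPM at 6 months and from 1.53 through 5.40 to 10.5 CPM at 27 months in females, again with no overlap. In males it ran from 0.312 through 0.541 to 2.52 CPM and from 1.04 through 2.73 to 7.31 CPM, and 6 of the 10 old libraries were above all young ones. The fold changes were 2.92 ± 0.35 (adjusted p = 1.3e-08) and 1.94 ± 0.41 (adjusted p = 0.00064) on the log2 scale. The medians at 12, 18, 21 and 24 months were 0.789, 1.20, 2.79 and 1.87 CPM in females, with a drop between 21 and 24 months, and 0.550, 0.973, 1.04 and 1.40 CPM in males. It was called from 18 months in females (1.19 ± 0.37, adjusted p = 0.049) and from 24 months in males (1.57 ± 0.41, adjusted p = 0.0063). The shares of all genes called in the female tibialis anterior were 0.527% at 12, 4.53% at 18, 10.7% at 21 and 16.3% at 24 months, and in the male 0.338%, 1.93%, 6.78% and 15.4%. At 27 months every gastrocnemius and tibialis anterior value stayed below the lowest diaphragm value of that age, 76.9 CPM.

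In the soleus and diaphragm Sln started high and did not pass the test at 27 months. The female soleus had 33.2, 44.4 and 85.3 CPM as lowest, median and highest values at 6 months and 39.3, 57.8 and 114 CPM at 27 months, with overlap and a log2 fold change of 0.41 ± 0.22 (adjusted p = 0.2). It was called there at 24 months, by 0.76 ± 0.23 (adjusted p = 0.012). The male soleus had a median of 23.0 CPM at 6 and 36.8 CPM at 27 months (0.51 ± 0.33, adjusted p = 0.51). In the diaphragm the log2 fold changes were 0.03 ± 0.19 in females and 0.25 ± 0.17 in males, with adjusted p = 0.99 and 0.36. The shares of all genes called in the female soleus were 0.221% at 12, 5.68% at 18, 22.7% at 21 and 23.3% at 24 months.

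The 27-month change was also compared between muscles directly, as the change in a muscle minus that in the gastrocnemius. For Sln this difference was -3.80 ± 0.36 in the female diaphragm and -3.96 ± 0.34 in the male diaphragm, and -3.42 ± 0.38 and -3.67 ± 0.46 in the female and male soleus, all called, with adjusted p from 9.9e-16 to 2.3e-08. Against the tibialis anterior it was -2.26 ± 0.50 in males (adjusted p = 0.04, lost with limma-voom at 0.23 and without the low-count filter at 0.056) and -0.92 ± 0.45 in females (adjusted p = 0.21). Other calls were Casq2 in the male diaphragm (-0.94 ± 0.26, adjusted p = 0.03, and 0.049 without the libraries that stand apart; lost with limma-voom at 0.053 and, at -0.65, with the run of sample numbers as a term at 0.34), Casq1 (0.44 ± 0.09) and Ryr1 (0.60 ± 0.11) in the female soleus, and Casq1 (0.28 ± 0.09, adjusted p = 0.049), Casq2 (-0.53 ± 0.14, adjusted p = 0.0077) and Pvalb (0.38 ± 0.12, adjusted p = 0.045) in the female tibialis anterior. There the call of Casq1 was lost with limma-voom (0.056) and without the filter (0.065), and that of Pvalb without the filter (0.060). Casq2 in the female diaphragm (-0.65, adjusted p = 0.11) was called without the libraries that stand apart (-0.78, adjusted p = 0.016). In all, 1 of 9 genes was called for the female diaphragm (1.86% of all genes), 2 for the male diaphragm (2.70%), 3 for the female soleus (14.2%), 1 for the male soleus (0.853%), 3 for the female tibialis anterior (7.01%) and 1 for the male tibialis anterior (0.0842%).

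Relative to the pump transcripts, Sln remained scarce in the old limb muscles. Per kilobase, there were 0.00963 Sln transcripts for every 100 of Atp2a1 and Atp2a2 together at the 6-month median of the female gastrocnemius and 0.174 at 27 months. In the male gastrocnemius the medians were 0.00614 and 0.139, and the lowest 27-month library, at 0.0810, was above the highest 6-month one, at 0.00951. In the female diaphragm the same quantity was 9.89 and 9.31 at the 2 ages, and in the female soleus it was 1.07 and 1.46.

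The summed list of denervation and regeneration genes, namely Myh3, Myh8, Myog, Chrna1, Chrng, Ncam1, Runx1 and Gadd45a, was higher in the same old libraries. Its level in the gastrocnemius ran from 55.5 to 65.7 CPM at 6 months and from 95.4 to 196 CPM at 27 months in females, and from 47.6 to 54.4 and from 106 to 183 CPM in males. Over all ages there, the embryonic myosin Myh3 was at most 17.0 CPM in females and 18.7 CPM in males. The fetal acetylcholine receptor subunit Chrng was at most 1.35 and 2.16 CPM, so other genes of the list made up most of the sum. Within ages, the deviations of Sln and of this list from their group means had a Pearson r of 0.61 over 52 female and 0.69 over 52 male gastrocnemius libraries, 0.59 and 0.55 over 51 and 51 tibialis anterior libraries, 0.53 and 0.64 over 51 and 52 soleus libraries, and 0.23 and -0.34 over 50 and 48 diaphragm libraries, where both values share a library and its scaling. In the male soleus the list also had no overlap between ages, with 82.7 to 122 CPM at 6 months and 136 to 282 CPM at 27 months, while Sln did not pass the test. In the diaphragm the list medians were 58.7 and 60.7 CPM in females and 50.1 and 60.5 CPM in males. The part of denervated or regenerating fibers in the Sln values was not tested.

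**Figure D4:**
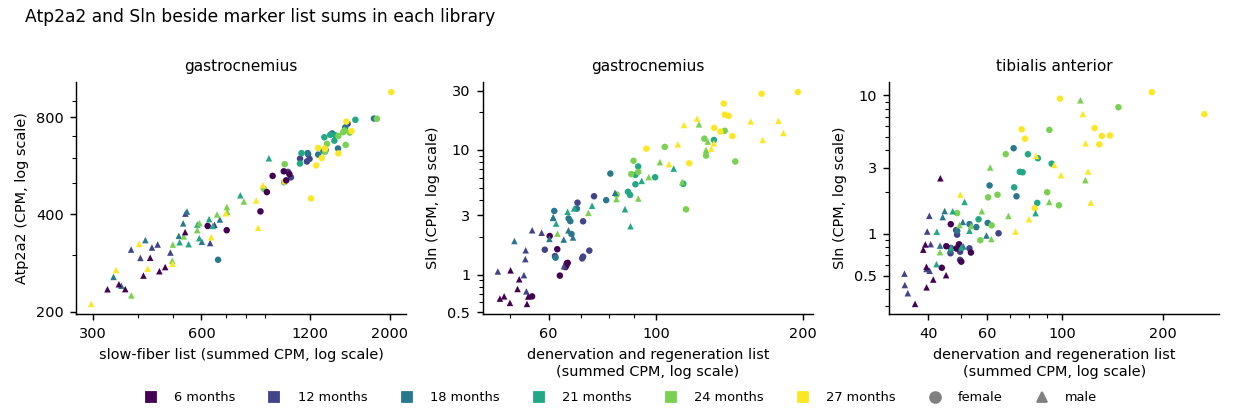
Atp2a2 beside the summed slow-fiber list in the gastrocnemius, and Sln beside the summed denervation and regeneration list in the gastrocnemius and tibialis anterior, all in CPM on log axes, with 1 point per library, color for age in months and shape for sex. Atp2a2 follows the slow-fiber list within and between the sexes, and within each muscle Sln tends to be higher where the denervation list sum is higher. The 27-month libraries of the female gastrocnemius hold 7.82 to 29.1 CPM of Sln.

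Among the genes whose pattern was most like that of Sln, over 48 group means with each muscle's mean removed and of 11249 genes compared, were Myl12a (a non-sarcomeric myosin light chain, r = 0.91), Rrad (a small G protein that restrains calcium channels, r = 0.90), Tnfrsf23 (a decoy receptor, r = 0.88) and Derl1 (a factor of endoplasmic reticulum protein disposal, r = 0.86). Of the other members, Atp2a2 ranked 333 with r = 0.54 and Casq2 ranked 378 with r = 0.53, and Casq1 was at the other end with r = -0.59.

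The pump genes moved in opposite directions in the gastrocnemius. Atp2a2 had 357, 489 and 544 CPM as lowest, median and highest values in females at 6 months and 448, 629 and 956 CPM at 27 months. In males it had 235, 263 and 353 CPM and then 211, 332 and 492.9 CPM. The ages overlapped, with 8 of 10 old female libraries and 4 of 10 old male libraries above all young ones. The log2 fold changes were 0.49 ± 0.12 (adjusted p = 0.0022) in females and 0.34 ± 0.13 (adjusted p = 0.043) in males, and the male call was lost with limma-voom (adjusted p = 0.068). It was called from 18 months in females (0.44 ± 0.13) and from 21 months in males (0.56 ± 0.13).

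Atp2a1 fell by 0.19 ± 0.05 (SE, log2 scale; adjusted p = 0.002) in the female and by 0.23 ± 0.05 (adjusted p = 0.0006) in the male gastrocnemius. The values went from 29136, 31537 and 33386 CPM to 24596, 26105 and 31948 CPM in females and from 27121, 29076 and 30344 CPM to 23209.8, 24732 and 26149 CPM in males, where all 10 old libraries lay below all young ones. As a share of both pump transcripts per kilobase, Atp2a2 ran from 0.882% through 1.15% to 1.43% and then from 1.08% through 1.86% to 2.71% in the female gastrocnemius, and the male medians were 0.682% and 1.05%. SERCA1 transcripts therefore remained the large majority in every gastrocnemius library of both ages.

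In the gastrocnemius the summed slow-fiber list was also higher at 27 than at 6 months, with medians of 1309 and 929 CPM in females and of 569 and 423 CPM in males. Within ages the Pearson r of Atp2a2 with this list was 0.93 over 52 female and 0.88 over 52 male gastrocnemius libraries, and that of Casq2 was 0.80 and 0.84. Of the defining slow markers Myh7 and Tnnt1, none was at 0 in any library. The part of the share of slow fibers, or of the piece of muscle sampled, in these values was not tested.

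In the tibialis anterior Atp2a2 had a median of 46.5 CPM at 6 and 65.7 CPM at 27 months in females, with ranges of 43.3 to 66.0 and 38.4 to 139 CPM that overlap. The log2 fold change was 0.63 ± 0.20 (adjusted p = 0.019, lost with limma-voom at 0.051). In males the change of 0.24 ± 0.09 gave an adjusted p of 0.051 (0.042 with DESeq2), and it was called at 24 months (0.25 ± 0.09, adjusted p = 0.043). In the soleus, where SERCA2 is most abundant, the changes were 0.16 ± 0.09 and -0.08 ± 0.13 with adjusted p = 0.21 and 0.86, and in the diaphragm they were 0.14 ± 0.18 and 0.09 ± 0.12. Atp2a1 did not pass the test outside the gastrocnemius, with log2 fold changes from -0.21 to 0.14.

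Pln was not called at 27 months in any of the 8 combinations, with log2 fold changes from -0.31 ± 0.25 in the female soleus to 0.40 ± 0.22 in the male gastrocnemius. In the male gastrocnemius it was called at 21 months (0.71 ± 0.23, adjusted p = 0.034) and at 24 months (0.86 ± 0.22, adjusted p = 0.0046). The medians there were 1.96 CPM at 6, 3.23 at 12, 2.73 at 18, 2.88 at 21, 3.76 at 24 and 2.37 CPM at 27 months. The 2 inhibitors therefore did not share a course in the gastrocnemius. Within ages the r of Pln with the smooth muscle list was 0.46 over 51 female and 0.55 over 51 male tibialis anterior libraries, and its part in the Pln values was not tested.

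Ryr1 rose in the female soleus, from 2012, 2463 and 2860.1 CPM at 6 months to 2780.4, 3263 and 3829 CPM at 27 months. Of the 10 old libraries, 9 were above all young ones. The log2 fold change was 0.46 ± 0.09 (adjusted p = 0.00026), and it was called with 0.46 ± 0.10 at 21 and 0.49 ± 0.09 at 24 months. In the male soleus it was -0.01 ± 0.13, and the female change minus the male change was 0.45 ± 0.16 with an adjusted p of 0.14. The Ryr1 median of the male soleus was already 3229.6 CPM at 6 months, near the old female level.

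In the female gastrocnemius Ryr1 fell by 0.14 ± 0.05 on the log2 scale (adjusted p = 0.027), from 6843, 7679.9 and 7948 CPM to 6229, 6599 and 8237 CPM, with overlap, and by 0.29 ± 0.05 at 21 and 0.27 ± 0.05 at 24 months.  The male change of -0.12 ± 0.06 was not called (adjusted p = 0.12), but without male gastrocnemius 12 months replicate 7, a library with 12822 CPM where the others had 7402 to 8531, it was -0.10 with an adjusted p of 0.022. In the male tibialis anterior Ryr1 was called at 21 months alone (0.17 ± 0.05, adjusted p = 0.044). Ryr3 was not called at 27 months in any combination, and its largest changes were 1.03 ± 0.36 in the male soleus (adjusted p = 0.11), 0.68 ± 0.26 in the female soleus (0.058, and 0.044 with DESeq2) and -0.57 ± 0.18 in the female diaphragm (0.081, and 0.045 without the libraries that stand apart). The ranges overlapped in all 3, from 1.64 to 7.92 CPM and 2.36 to 14.8 CPM in the male soleus.

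The calsequestrins also moved in opposite directions in the gastrocnemius. Casq1 went from 1468, 1551 and 1789 CPM at 6 months to 935, 1223 and 1399 CPM at 27 months in females and from 1384, 1573 and 1698 CPM to 619, 1238 and 1350.0 CPM in males. All 10 old libraries of each sex lay below all 8 young ones. It fell by 0.39 ± 0.06 (adjusted p = 2e-06) and by 0.42 ± 0.08 (adjusted p = 0.00015) on the log2 scale. In females it was called from 18 months (-0.24 ± 0.06), and in males at 27 months alone.

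Casq2 rose in the same muscle. It had 18.8, 25.3 and 29.0 CPM at 6 months and 27.7, 32.6 and 43.7 CPM at 27 months in females, and 12.2, 13.8 and 18.6 CPM and then 10.8, 21.0 and 26.6 CPM in males. The ages overlapped, with 7 of 10 female and 6 of 10 male old libraries above all young ones. The log2 fold changes were 0.43 ± 0.10 (adjusted p = 0.00062) and 0.52 ± 0.14 (adjusted p = 0.0046). The Casq2 share of calsequestrin transcripts per kilobase had medians of 1.13% and then 1.96% in females and of 0.646% and then 1.29% in males. In the diaphragm and soleus, where Casq2 made up 23.6% to 35.1% at the 6-month medians, the gene was not called.

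**Figure D5:**
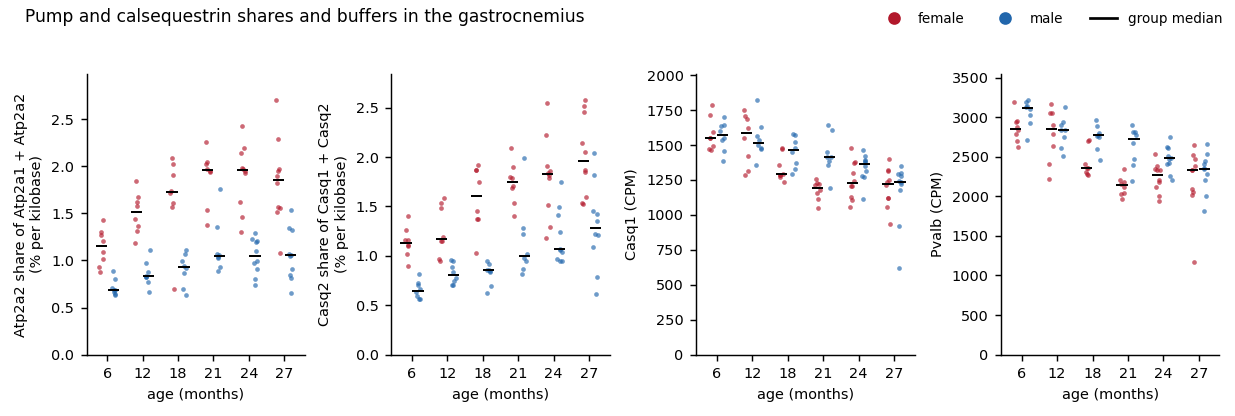
The Atp2a2 share of pump transcripts and the Casq2 share of calsequestrin transcripts (percent, per kilobase), and Casq1 and Pvalb in CPM, in every gastrocnemius library by age in months and sex, with black lines at the group medians. The median shares are 1.15% at 6 and 1.86% at 27 months and 1.13% and 1.96% in females, while the 27-month medians of Casq1 and Pvalb lie below those at 6 months in both sexes.

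Outside the gastrocnemius Casq1 was not called. In the male diaphragm it had a median of 275 CPM at 6 and 189 CPM at 27 months and a log2 fold change of -0.57 ± 0.21 (adjusted p = 0.08). Without the libraries that stand apart, which include 1 at 15.2 CPM, the change was -0.40 and was called (adjusted p = 0.014), and without the libraries with liver transcripts it was -0.64 (adjusted p = 0.038). With DESeq2 it was -0.60 (adjusted p = 0.043). In the male tibialis anterior the change was -0.26 ± 0.10 (adjusted p = 0.069, and 0.035 with limma-voom).

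Pvalb fell in the gastrocnemius of both sexes, by 0.37 ± 0.08 (adjusted p = 0.0003) in females and by 0.40 ± 0.05 (adjusted p = 2e-07) in males on the log2 scale. The values went from 2620.1, 2856 and 3190.4 CPM to 1164, 2330.4 and 2646 CPM in females and from 2718, 3119 and 3223 CPM to 1820.3, 2348 and 2656 CPM in males. In males all 10 old libraries lay below all young ones, and in females 9 of 10 did. It was called from 21 months in both sexes. In the tibialis anterior, where Pvalb is nearly as abundant, the changes were 0.01 ± 0.09 and -0.20 ± 0.08 with adjusted p = 0.95 and 0.083.

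In the male diaphragm Pvalb had 43.5, 175 and 237 CPM at 6 months and 36.2, 83.5 and 139.9 CPM at 27 months. The ranges overlap, and the 27-month median was 0.478 of the 6-month one. The log2 fold change was -0.998 ± 0.256 (adjusted p = 0.014), and the adjusted p was 0.0037 without the libraries that stand apart and 0.011 without those with liver transcripts. The libraries that stand apart include the lowest one at 6 months, at 43.5 CPM, so the smaller adjusted p follows in part from their choice. With the run of sample numbers as a term the change was -0.85 (adjusted p = 0.25). In the soleus Pvalb varied widely, from 2.28 to 78.5 CPM in 10 female libraries at 27 months, and its changes of -0.74 ± 0.57 and -1.37 ± 0.57 were not called.

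Fast-fiber markers moved with these genes in the gastrocnemius. The summed fast-fiber list, led by Myh4, had a median of 67129 CPM at 6 and 52191 CPM at 27 months in females and of 69284 and 58878 CPM in males. In the tibialis anterior the list's medians at these ages were 56847 and 57501 CPM in females and 61422 and 59133 CPM in males. Within ages the r of Pvalb with this list was 0.77 over 52 female but 0.25 over 52 male gastrocnemius libraries, and for Casq1 it was 0.66 and 0.16. The genes most like Pvalb over the 48 group means were Tmem233 (r = 0.81), Phkg1 (the catalytic subunit of muscle phosphorylase kinase, r = 0.79), 9330159F19Rik (r = 0.79), Mybpc2 (fast myosin-binding protein C, r = 0.77) and Myh4 (r = 0.77). The part of fiber type in the fall of Casq1, Atp2a1 and Pvalb was not tested.

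The 27-month change was not called as different between females and males for any of the 9 genes in any muscle. The count was 0 of 9 in the diaphragm (0.00% of all genes), gastrocnemius (1.60%), soleus (0.855%) and tibialis anterior (1.73%), with edgeR and with limma-voom, and 2 genes in the soleus had an unadjusted p below 0.05. For Sln the difference, female minus male, was -0.37 ± 0.41 in the gastrocnemius (adjusted p = 0.69) and 0.98 ± 0.53 in the tibialis anterior (adjusted p = 0.37) on the log2 scale. Their 95% intervals, without adjustment, were -1.17 to 0.44 and -0.06 to 2.01, so differences between the sexes within these intervals were not excluded.

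None of the 40 listed genes of the pathway that were found was called with a change of more than 1.5-fold in the same direction in at least 2 of the 8 combinations, so no further gene was named by that rule and the genes below were chosen after their values were seen. Over the 8 combinations, 8.01% of all gene tests were called higher and 7.32% lower. Of 128 tests of 16 release and triad genes, 13 rose and 18 fell, of 72 tests of 9 uptake and store genes 7 rose and 7 fell, and of 72 tests of 9 calcium entry and extrusion genes 14 rose and 6 fell. Of 48 tests of 6 genes of mitochondrial calcium uptake, 10 rose and 0 fell, and the list's median was above that of all genes in 8 of 8 combinations, against 1, 3 and 4 of 8 for the other 3 lists in the order above.

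Among release genes, Cacng1, the gamma subunit of the voltage sensor, rose in the 3 limb muscles of both sexes, by 0.37 (female soleus) to 0.62 (male tibialis anterior) on the log2 scale with adjusted p from 0.0089 to 2.3e-09, and was -0.02 and -0.26 in the diaphragm. The junctophilins Jph1 and Jph2, which hold the triad membranes together, fell in the gastrocnemius of both sexes, Jph1 by 0.25 and 0.20 and Jph2 by 0.30 and 0.41. Mrln (myoregulin), a further peptide inhibitor of the pump, fell by 0.49 in the female and by 0.36 in the male gastrocnemius (adjusted p = 1.1e-05 and 1.5e-05), where Sln rose. In the tibialis anterior, where Sln also rose, Mrln was not called (-0.08 and -0.05, adjusted p = 0.56 and 0.70). Mrln was called as lower in the male diaphragm (-0.55, adjusted p = 0.046), where Sln was not called. In the female soleus 6 of the 16 release and triad genes rose, as Ryr1 did, against 18.8% of all genes called in either direction. They included Cacna1s, the voltage sensor itself (0.27, adjusted p = 0.00021), and Jph2 (0.35, adjusted p = 0.0036). Itpr1, of the same list, fell there (-0.30, adjusted p = 0.0054). In the male diaphragm Atp2a3 (the third SERCA gene) rose by 1.17 ± 0.36 (adjusted p = 0.036) and Orai2 (a store-operated calcium channel) by 0.99 ± 0.25 (adjusted p = 0.014), while in the female diaphragm they were 1.41 ± 0.48 (adjusted p = 0.12) and 0.65 ± 0.31 (adjusted p = 0.32). Orai2 was also called in the female (0.43) and male gastrocnemius (0.50) and the female tibialis anterior (0.42). Atp2a3 was also called in the female gastrocnemius (0.39) and female soleus (0.43). Neither gene was called in its remaining combinations. Ryr2, the cardiac release channel, rose by 0.63 ± 0.18 (adjusted p = 0.0076) in the female gastrocnemius. The mitochondrial gatekeeper Micu2 rose by 0.28 and 0.30 in the female and male gastrocnemius, by 0.48 in the female soleus and by 0.21 in the male tibialis anterior.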

How the data were processed

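RNA was measured in 407 muscle libraries. According to the paper's methods and the labels, the authors removed ribosomal RNA, prepared strand-specific total RNA libraries, sequenced paired reads, aligned them to the mouse genome build mm10 with ArrayStudio and counted them on a gene model built from RefSeq. The pipeline's version was not stated in the sources read. The deposited files hold raw read counts per gene symbol, 1 file per library, not pooled. All 407 libraries carry their muscle, sex and age in the labels.

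Of 25091 rows, 329 symbols stood on several rows; the row with the highest total was kept, and 633 rows holding 0.0335% of the counts were left out. Counts were tested with edgeR 4.0.16 (R 4.3.3; filterByExpr, TMM, quasi-likelihood, adjusted p below 0.05 by the Benjamini-Hochberg method). Ages were compared within each muscle and sex, muscles within each sex at 6 months, the sexes within each muscle, and the changes between muscles and between sexes by interaction terms. Levels are CPM, divided by transcript kilobases (RefSeq, GRCm38.p6) where genes are compared. A fold change is on the log2 scale with its standard error.

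The methods of the study used limma with Bonferroni and a 1.5-fold limit; these, DESeq2 1.42.0, RLE size factors, no filter, a replicate block and a term for the run of sample numbers were tried as alternatives. Leaving out the libraries with liver transcripts, or those that stand apart by Dixon's test on log2 CPM for at least 2 of the 9 genes, was added after seeing the data. The tests were tried on simulated counts for the ages of the female gastrocnemius and for the change in the male soleus against the gastrocnemius alone. The simulated libraries were independent and none was made to stand apart, so shared mice and such libraries were not covered. The outcome is not given here. The members, gene lists and marker lists were chosen with earlier results of these data known.

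Genes named are the 9 members, the listed pathway genes called with a fold above 1.5 in the same direction in at least 2 of 8 muscle and sex combinations, and the 5 genes most like Sln and Pvalb by Pearson r of group means, of which 1 is not reported here. Lists were release and triad, uptake and store, entry and extrusion, and mitochondrial calcium, and the markers of slow fiber, fast fiber, heart, smooth muscle, liver, and denervation and regeneration. Strit1, Arln and Erln were not analysed here. Depth of 38583802 to 300089909 counts per library limits precision for low genes, and p-values cover the spread between libraries.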

Additional observations from a re-analysis of the deposited data

Results flagged for a closer look

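In 44 of 432 groups of a gene, muscle, sex and age, the highest or lowest library stood apart from the others by Dixon's test. Chance gives about 1 in 20 such groups. Most of those with several genes at once were diaphragm libraries.

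In the male diaphragm at 6 months, replicate 2 was lowest for Atp2a1 (592 CPM, the rest 4976 to 6398), Ryr1 (178 CPM) and Pvalb (43.5 CPM), and replicate 6 was lowest for Casq1 (206 CPM). At 12 months, male diaphragm replicate 2 was lowest for Atp2a1 (3379 CPM), Atp2a2 (699 CPM), Ryr1 (817 CPM) and Casq1 (150.3 CPM), and replicate 1 was highest for Ryr3 (8.81 CPM). Ryr3 was also highest in 1 male diaphragm library at 24 months (13 CPM). At 27 months, male diaphragm replicate 8 was lowest for Casq1 (15.2 CPM, the rest 152 to 286) and Casq2 (14.1 CPM, the rest 109 to 201), and replicate 6, which holds liver transcripts, was lowest for Ryr1 (537 CPM). In the female diaphragm, replicate 0 at 27 months was lowest for Atp2a1 (1134 CPM) and Ryr1 (199.8 CPM) and highest for Casq2 (264 CPM). Female diaphragm replicate 1 at 24 months was lowest for Atp2a2 (614 CPM) and Casq1 (126 CPM), and 1 female diaphragm library at 18 months was highest for Casq2 (324 CPM).

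In the gastrocnemius, male replicate 7 at 12 months was highest for Atp2a1 (42784 CPM) and Ryr1 (12822 CPM). Male replicate 8 was lowest for Casq1 at 24 months (1115 CPM) and at 27 months (619 CPM). Single libraries stood apart for Pln in males at 6 months (lowest, 0.973 CPM), Casq2 in males at 21 months (highest, 38.2 CPM) and in females at 6 months (lowest, 18.8 CPM), Atp2a2 in females at 18 months (lowest, 289 CPM) and Pvalb in females at 27 months (lowest, 1164 CPM).

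In the soleus, male replicate 8 at 24 months was lowest for Pln (4.83 CPM) and Casq1 (217 CPM). Single lowest libraries were found for Sln (40.2 CPM) and Pln (10.02 CPM) in females at 12 months, Atp2a2 in females at 27 months (4795 CPM), Casq1 in males at 6 months (298 CPM), Casq2 in males at 12 months (138 CPM) and Pvalb in females at 24 months (0.698 CPM, the rest 9.57 to 58.9). Sln was highest in 1 male library at 18 months (84.4 CPM, the rest 14.4 to 30.4).

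In the tibialis anterior, Sln was lowest in 1 female library at 27 months (1.53 CPM) and highest in 1 male library at 6 months (2.52 CPM) and at 24 months (9.18 CPM). Pln was highest in 1 male library at 18 months (2.90 CPM), Ryr1 was lowest in 1 female library at 12 months (5635 CPM), and Casq2 was highest in 1 female library at 18 months (48.3 CPM) and lowest in male replicate 8 at 24 months (16.2 CPM).

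The change at 27 months differed from that in the gastrocnemius, by the interaction term, for 11 pairs of a gene and muscle. For Sln the difference was -3.80 in the female and -3.96 in the male diaphragm, -3.42 in the female and -3.67 in the male soleus, and -2.26 in the male tibialis anterior. For Casq1 it was 0.44 in the female soleus and 0.28 in the female tibialis anterior, for Casq2 -0.94 in the male diaphragm and -0.53 in the female tibialis anterior, for Ryr1 0.60 in the female soleus and for Pvalb 0.38 in the female tibialis anterior.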

How the results depend on the processing

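Of 486 values of the 9 genes at 27 against 6 months under the alternatives, 457 kept their direction and side of the threshold, 11 became called, 5 lost the call and 13 changed sign, none of them called. The 18 calls became 6 with a 1.5-fold limit and 5 with Bonferroni, and ranged from 17 to 22 otherwise. The 22 calls of any older age became 8 with the 1.5-fold limit, the 8 calls between the sexes became 5, and the 11 calls of muscle differences in change became 7, since the limit removes small changes by construction. The calls between muscles at 6 months ranged from 84 to 91 around 89, and those of the sex difference in change were 0 under every alternative.

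The changes of sign were, with the run of sample numbers as a term, Pln -0.075 and Sln -0.0028 in the female diaphragm and Ryr1 0.086 in the male soleus. Without the libraries that stand apart Pln was 0.13 in the male diaphragm, and without those with liver transcripts Atp2a1 was 0.028 there. With limma-voom Atp2a1 was 0.16 in the male diaphragm and Ryr1 0.0049 in the male soleus, where Ryr1 was 0.0015 with RLE size factors and 0.0015 with DESeq2. The cause was not tested.

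With the replicate block the calls were 18 at 27 months, 19 for any older age, 90 between muscles, 8 between the sexes and 13 for the muscle differences. The block changed the sign of Atp2a1 in the male diaphragm (0.036), Ryr1 in the male soleus (0.058) and Ryr3 in the female (0.0035) and male (0.032) gastrocnemius, and adjusted p was 0.069 for Pvalb in the male diaphragm and 0.0503 for Ryr1 in the female gastrocnemius. In the change relative to the gastrocnemius, Casq2 was called with the block in the male tibialis anterior (-0.62, adjusted p = 0.0024, without it 0.17) and female soleus (-0.33, adjusted p = 0.017, without it 0.061). For any older age the block gave 0.075 and 0.093 for Atp2a2 in the female and male tibialis anterior, 0.069 for Ryr1 in the male gastrocnemius, 0.34 for Pvalb in the male diaphragm and 0.046 for Casq1 in the male tibialis anterior. At 27 months it gave 0.038 for Casq1 and 0.049 for Pvalb in the male tibialis anterior. The labels do not say whether the numbers pair the samples. Across ages the median correlation of same-numbered libraries was -0.00022 to 0.0499. Across limb muscles it was 0.141 to 0.328, against -0.0769 to -0.0198 for other numbers, with 68% to 96.1% of pairs above 0.1 but some as low as -0.271, so the numbers were not used as pairs. Low counts limit Sln, Pln and Ryr3 in the gastrocnemius and tibialis anterior. A change of scaling moved the median of all genes by at most 0.037 on the log2 scale.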

Other observations

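Among male mice at 27 months, the library numbered 8 had the lowest Casq1 of its group in all 4 muscles, at 15.2 CPM in the diaphragm, 619 CPM in the gastrocnemius, 186 CPM in the soleus and 473 CPM in the tibialis anterior, where the group medians were 189, 1238, 332 and 1156 CPM. Pvalb was also lowest in this number in the diaphragm (36.2 CPM), gastrocnemius (1820.3 CPM) and tibialis anterior (1307 CPM). At 24 months the male libraries numbered 8 had the lowest Casq1 in the 3 limb muscles, with 1115 CPM in the gastrocnemius, 217 CPM in the soleus and 1058 CPM in the tibialis anterior. The labels do not tie a number to a mouse. These libraries were picked after their values were seen, so no test was run.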
